A study of Mus musculus with 4 samples.

Results

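The 39 genes described here encode proteins that copy DNA in S phase, and they were taken from a list of named replication genes sorted by step of replication. All 39 were found by symbol among the 55401 gene models of the series. The rule that chose them uses names and no measured value, but the list was drawn up with earlier results of these data known. RNA-seq libraries, 2 of KO and 2 of Control, were made from cells sorted out of the bone marrow of adult mice on a C57BL/6 CD45.2 background. The study's methods give both sexes for its mice in general and do not name the sex of the mice sequenced. Mice of the KO group carried Cpt1a fl/fl together with Vav1-Cre, which deletes the floxed gene throughout the blood system rather than in stem cells alone. Control mice carried Cpt1a fl/fl without the Cre transgene and are marked WT in the labels. CPT1A loads long-chain fatty acids onto carnitine for entry into mitochondria. The comparison of KO with Control asked how loss of Cpt1a altered the transcriptome of these cells. Whether replicates are separate animals is in none of the labels, so a p-value here measures the spread between libraries only, and that spread may be technical.

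DNA replication starts at origins that are licensed in G1, when the origin recognition complex, CDC6 and CDT1 load the MCM2-7 helicase onto DNA. On entry into S phase, CDC45, MCM10 and the GINS complex turn the loaded helicase into an active one, primase and the DNA polymerases follow it, and the PCNA clamp holds polymerases on the template. Most of these genes are transcribed under E2F factors at the G1/S boundary, so their transcripts are abundant in dividing progenitors and scarce in resting stem cells.

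Promoter sequence shows letters that some of these genes share apart from function. RefSeq promoter windows (GRCm38.p6, 250 bases before to 50 bases after the transcript start) were matched by symbol to 31 of the 39 genes. The core letters of E2F sites were searched on both strands as TTTCCCGC, TTTCGCGC, TTTGCCGC and TTTGGCGC, and overlapping matches in a window were counted as 1 window. They were present in 12 of 35 replication gene windows (34.3%), against 2.26% of all 32851 windows. By gene, 12 of the 31 (38.7%) had a match, so most did not. CCAAT, the letters of a common promoter element, were present in 60.0% of the replication gene windows and in 37.4% of all windows. The letters are a description of sequence and not a measure of binding. Stretches of 4 of these genes are shown because they hold the E2F letters upstream of a RefSeq transcript start and outside annotated exons. The letters are in capitals on either strand. All are written 5′ to 3′ on the strand of the gene.
Mcm6, chr1:128359792-128359831, minus strand: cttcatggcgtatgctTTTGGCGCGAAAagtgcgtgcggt
Mcm6, chr1:128359729-128359768, minus strand: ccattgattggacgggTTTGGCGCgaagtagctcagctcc
Mcm5, chr8:75109340-75109379, plus strand: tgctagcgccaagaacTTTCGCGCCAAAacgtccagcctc
Cdc6, chr11:98907997-98908036, plus strand: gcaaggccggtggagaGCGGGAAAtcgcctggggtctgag
Pola1, chrX:93632270-93632309, minus strand: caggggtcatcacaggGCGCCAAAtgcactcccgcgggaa
In the first Mcm6 stretch and in Mcm5, matches on the 2 strands overlap, which gives a run of 12 capitals. In the others a single match is shown. The Cdc6 stretch lies within the GENCODE M21 gene model, which begins at 98907801, and upstream of a later RefSeq start.

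Libraries of the KO group were deeper, with 34083159 and 33909781 expected counts, than those of Control, with 20589218 and 23291747. Cpt1a itself had 11.5 and 19.2 TPM (a transcript level corrected for transcript length and library size) in KO and 37.0 and 35.6 TPM in Control. It fell in KO with a log2 fold change of -1.60 (SE 0.152, edgeR adjusted p = 0.00695), which is in the direction of the labels. The labels name the cells ltHSC and the study's text calls them HSPCs. Slamf1, which encodes the CD150 protein that marks long-term stem cells, was at 4.83 and 2.88 TPM in KO and 4.44 and 4.41 TPM in Control. Cd48, whose protein is absent from the study's gate for long-term stem cells, was at 160 and 146 TPM in KO and 88.0 and 80.3 TPM in Control. By transcript level, the libraries thus held a marker that this gate leaves out.

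Replication genes were expressed at high and nearly equal levels in KO and Control. The summed level of the 39 genes was 4940 and 5185 TPM in KO and 5136 and 5055 TPM in Control, and the 2 groups overlapped. None of the 39 genes passed the test in either direction (edgeR quasi-likelihood test with Benjamini-Hochberg adjustment over 14635 genes), and the lowest adjusted p was 0.349. Across all genes tested, 0.451% were called higher and 0.212% lower in KO. At an unadjusted p under 0.05, 0 replication genes were higher, beside 5.81% of all genes, and 2 were lower, Chaf1b and Pold1, beside 4.61% of all genes. DESeq2 called 0 higher, beside 4.29% of all genes, and the same 2 genes lower, beside 3.55% of all genes. At an unadjusted p under 0.05 DESeq2 had 1 higher, beside 10.4% of all genes, and 4 lower, beside 8.8% of all genes. In bulk RNA, fewer cells in S phase and less replication RNA per cell cannot be told apart.

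The fold changes were small, and their median error was smaller than that of all genes tested. Of the 39 log2 fold changes, 13 were positive and 26 negative, from -0.46 for Gins3 to 0.33 for Rfc3, and 0 exceeded 0.5 in size. Their median was -0.08, beside 0.01 over all genes tested, and the median of their sizes was 0.12, beside 0.25. The median SE was 0.139, beside 0.261 over all genes. The 95% interval of the fold change lay between 0.5 and 2 for 38 of the 39 genes, beside 53.6% of all genes, the exception being Gins3. It lay between 1/1.5 and 1.5 for 27 of them, beside 28% of all genes. A change larger than 2-fold thus lay outside the interval of every replication gene but Gins3.

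**Figure D1:**
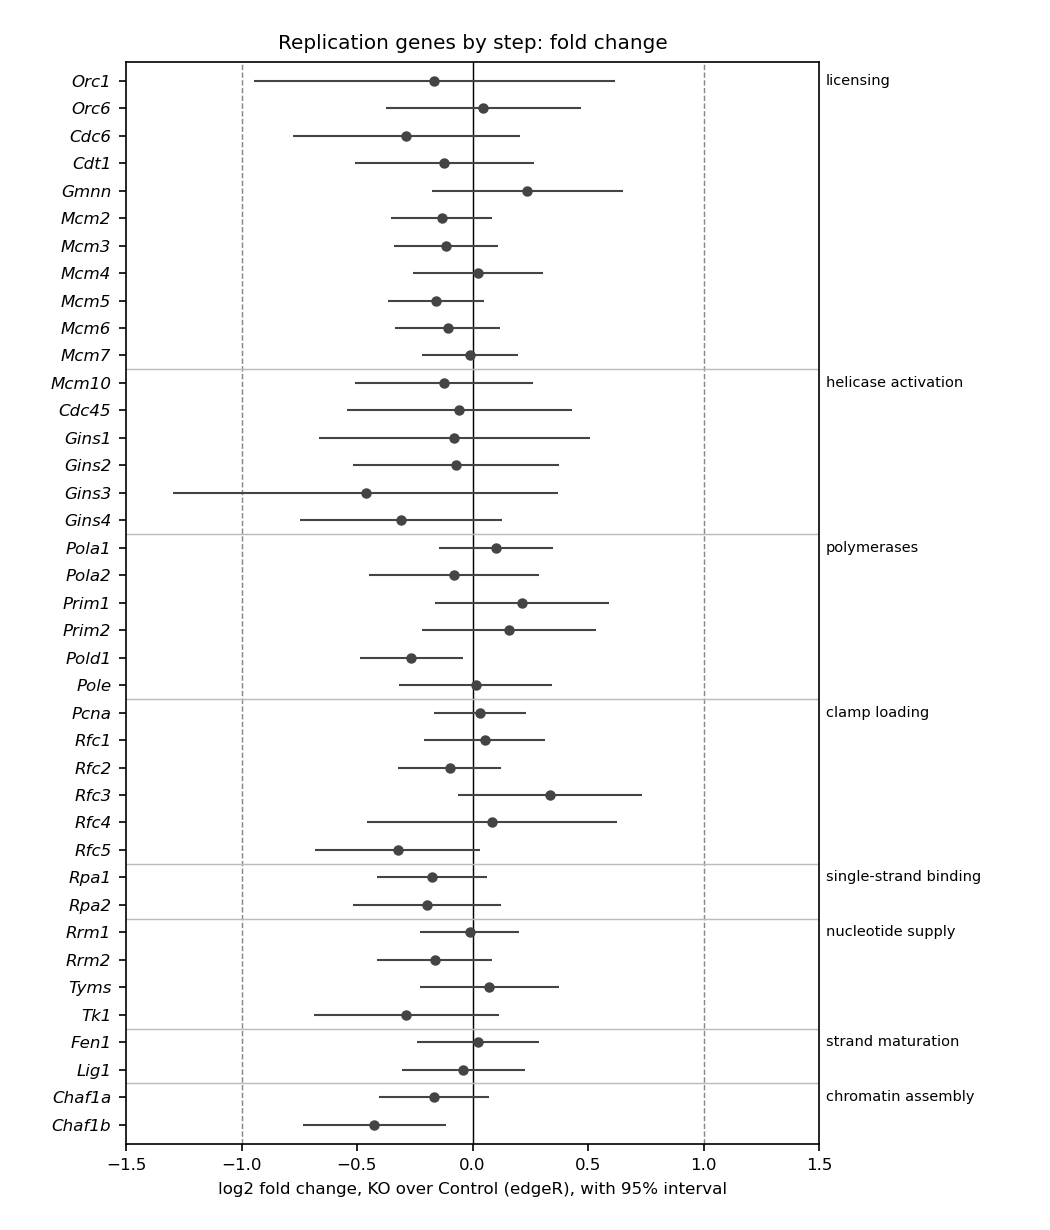
Log2 fold change of KO over Control for each of the 39 replication genes (points, edgeR) with its 95% interval (lines), grouped by step, with dashed lines at a 2-fold change. Every point lies between -0.46 and 0.33, and only the line of Gins3 crosses a dashed line.

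Differences between libraries of the same group were as large as those between the groups. On the TPM scale, the median size of the log2 ratio between replicates was 0.164 in KO and 0.203 in Control, and that of the KO mean to the Control mean was 0.124. The replicates of KO differed by more than the group means for 26 genes, and those of Control for 23 genes. Single libraries vary more than means of 2 libraries, so these values do not measure whether the groups differ. On TMM-scaled CPM (counts scaled to a common library size, without length), both KO libraries lay above both Control libraries for 4 genes (Gmnn, Pola1, Rfc3 and Tyms), which is 10.3% beside 22.7% of all genes. Both lay below for 11 genes, which is 28.2% beside 19.3% of all genes. These were Mcm2, Mcm5, Gins4, Pold1, Rfc2, Rfc5, Rpa1, Rpa2, Rrm2, Chaf1a and Chaf1b. On TPM the counts were 7 above, beside 23.1% of all genes, and 6 below, beside 16.8%, so that the lean toward lower values on CPM was absent on TPM.

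Levels differed widely between the genes, with the same genes at the top and the bottom in every library. They ranged from 7.09 TPM for Orc1 to 552 TPM for Pcna, and each gene had between 331 and 23589 expected counts in a library. The median over the 39 genes was 91.7 TPM in KO and 93.3 TPM in Control, against 17.08 TPM in KO and 17.07 TPM in Control over all genes tested. Pcna, Mcm7, Mcm6 and Mcm3 held ranks 1 to 4 in all 4 libraries, and Gins3 and Orc1 held the last 2 ranks. The rank of a gene moved by a median of 4 places between its highest and lowest library. The sorted cells therefore carried abundant S phase transcripts in both genotypes.

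**Figure D2:**
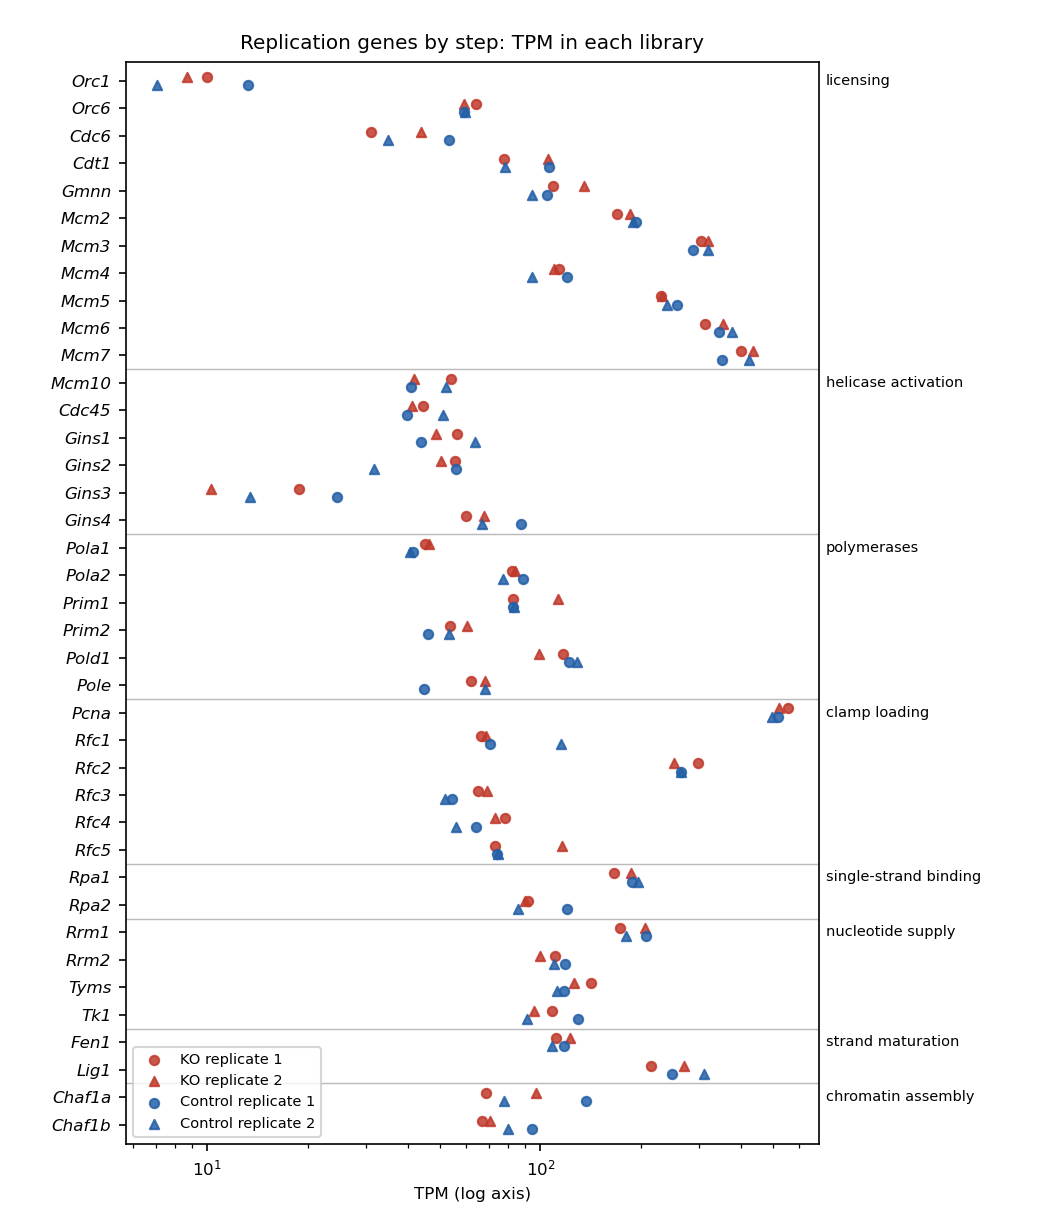
TPM of each replication gene on a log axis, with 1 point per library (red KO, blue Control, circles replicate 1, triangles replicate 2), grouped by step. Red and blue points of a gene mostly overlap, and the points of Pcna, up to 552 TPM, lie farthest to the right.

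Licensing genes were at similar levels in both groups. The 11 genes summed to 1820 and 1989 TPM in KO and 1890 and 1915 TPM in Control. Their median log2 fold change was -0.12, and 0 of them passed the test. Over all genes tested, 0.451% were called higher and 0.212% lower. For this and the smaller steps below, 0 calls therefore say little about the step. Mcm2, Mcm3, Mcm4, Mcm5, Mcm6 and Mcm7, the 6 subunits of the replicative helicase, are loaded together as a ring, and their transcripts summed to 1528 and 1636 TPM in KO and 1554 and 1641 TPM in Control. Within the ring, the most abundant subunit transcript exceeded the least abundant by 3.51 and 3.94 times in KO and by 2.91 and 4.46 times in Control. Equal subunits in the protein ring were thus not matched by equal transcript levels.

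Mcm5 had 229.6 and 231 TPM in KO and 257 and 239.9 TPM in Control. The groups did not overlap, but the log2 fold change was only -0.16 (SE 0.0902, edgeR adjusted p = 0.596). Mcm2 was at 170.2 and 186 TPM in KO and 194 and 189 TPM in Control. It also lay lower in both KO libraries, with a log2 fold change of -0.13 (SE 0.0952, edgeR adjusted p = 0.706). Its interval ran from a fold change of 0.783 to 1.06. Gmnn, which encodes geminin, the inhibitor of CDT1 that blocks relicensing, lay above Control in both KO libraries, at 109 and 135 TPM in KO and 105 and 94.6 TPM in Control, with a log2 fold change of 0.24 (edgeR adjusted p = 0.727). Cdt1 and Cdc6, which encode the loading factors, had log2 fold changes of -0.12 and -0.29, and their libraries overlapped. Cdc6 was at 31.0 and 43.9 TPM in KO and 53.3 and 35.0 TPM in Control, so each group held a high and a low library. Orc1 and Orc6, subunits of the origin recognition complex, had log2 fold changes of -0.17 and 0.05.

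Helicase activation genes all had negative log2 fold changes on counts, with a median of -0.10, and 0 of 6 passed the test. On TPM the log2 ratio of the group means was positive for Gins2 (0.27) and Mcm10 (0.04), and without Control replicate 2 the median on counts was 0.02. Their sums were 289 and 259.9 TPM in KO and 292 and 279 TPM in Control. Gins4, a subunit of the GINS complex that binds MCM2-7 in the active helicase, had 60.0 and 67.7 TPM in KO and 87.5 and 66.7 TPM in Control. These values overlapped on TPM, while on TMM-scaled CPM (46.0 and 53.1 in KO, 69.2 and 53.6 in Control) the upper KO and the lower Control libraries were nearly equal. The log2 fold change was -0.31 (SE 0.190, edgeR adjusted p = 0.631). Gins3, another GINS subunit, was at 18.9 and 10.3 TPM in KO and 24.5 and 13.4 TPM in Control. Its value was lower in replicate 2 of each group, and its log2 fold change of -0.46 had the widest error of all replication genes (SE 0.361, edgeR adjusted p = 0.745). Without Control replicate 1 it was 0.02, and without KO replicate 1 it was -0.90, so single libraries set its size. Gins1, Gins2, Cdc45 and Mcm10 had log2 fold changes between -0.12 and -0.06.

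Polymerase genes had a median log2 fold change of 0.06, with 4 of 6 positive, and 0 passed the test. The polymerase genes summed to 442 and 471 TPM in KO and 426 and 452 TPM in Control. Pold1, the catalytic subunit of polymerase delta, which copies the lagging strand, was at 117 and 99.4 TPM in KO and 122 and 129 TPM in Control. On CPM its replicates were nearly equal, at 187 and 188 in KO and 223 and 227 in Control. It lay lower in both KO libraries on each scale, with a log2 fold change of -0.26 (SE 0.0966, edgeR adjusted p = 0.421), and DESeq2 called it lower (adjusted p = 0.00981). In edgeR its interval ran from a fold change of 0.713 to 0.972. Prim1, the catalytic subunit of primase, which lays down RNA primers, had 83.1 and 113 TPM in KO and 82.8 and 83.2 TPM in Control. Replicate 2 of KO alone was high, and the log2 fold change was 0.21 (SE 0.163, edgeR adjusted p = 0.733). Pola1, the catalytic subunit of polymerase alpha, was higher in both KO libraries, at 45.1 and 46.3 TPM in KO and 41.5 and 40.7 TPM in Control, with a log2 fold change of 0.10. Pole, the leading-strand polymerase, had a log2 fold change of 0.01, while Pola2 and Prim2, the partner subunits of polymerase alpha and primase, had -0.08 and 0.16.

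Clamp loading genes held the highest replication gene. Pcna encodes the sliding clamp and was at 552 and 520.1 TPM in KO and 519 and 495 TPM in Control. The groups lay next to each other on TPM, overlapped on CPM, and had a log2 fold change of 0.03 with the smallest SE of all replication genes (0.0860). The other 5 genes encode replication factor C, the loader that opens PCNA. Rfc3 had 65.0 and 69.3 TPM in KO and 54.3 and 51.9 TPM in Control. Its KO libraries lay above both Control libraries on each scale, and its log2 fold change of 0.33 was the highest among replication genes (SE 0.172, edgeR adjusted p = 0.556). Rfc5 pointed in opposite directions on the 2 scales. It had 87.0 and 85.9 CPM in KO and 93.8 and 122 CPM in Control, with a log2 fold change of -0.32 (SE 0.155, edgeR adjusted p = 0.527). Per length it had 73.3 and 116 TPM in KO and 74.1 and 74.8 TPM in Control. The median of the 6 genes was 0.04 and 0 passed the test.

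The RPA subunits, which coat single-stranded DNA at the fork, both had negative log2 fold changes. Rpa1 was at 167 and 187 TPM in KO and 189 and 196 TPM in Control. The groups did not overlap, with a log2 fold change of -0.17 (SE 0.103, edgeR adjusted p = 0.614). Rpa2 had a log2 fold change of -0.20, and its libraries overlapped on TPM at 92.0 and 89.8 in KO and 120.05 and 85.8 in Control.

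Nucleotide supply genes had a median log2 fold change of -0.09, and 0 of 4 passed the test. Tk1, thymidine kinase, which salvages thymidine, was at 109 and 95.8 TPM in KO and 130 and 91.3 TPM in Control. Its Control libraries enclosed both KO libraries on TPM. On CPM (77.2 and 65.8 in KO, 99.2 and 75.3 in Control) the groups overlapped. The log2 fold change on counts was -0.29 (SE 0.174, edgeR adjusted p = 0.622). Rrm2, the small subunit of ribonucleotide reductase, had 111.0 and 99.99 TPM in KO and 119 and 110.3 TPM in Control. The upper KO library just exceeded the lower Control library, and on CPM (144 and 135 in KO, 155 and 157 in Control) they did not overlap. Its log2 fold change was -0.16 (SE 0.108, edgeR adjusted p = 0.665). Rrm1, the large subunit of the same enzyme, had a log2 fold change of -0.01. Tyms, thymidylate synthase, which makes dTMP, lay slightly higher in both KO libraries at 142 and 127 TPM in KO and 118 and 112 TPM in Control, with a log2 fold change of 0.07.

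Strand maturation and chromatin assembly genes closed the pathway. Lig1, the ligase that seals Okazaki fragments, had 215 and 269.9 TPM in KO and 248 and 309.9 TPM in Control, with overlapping groups and a log2 fold change of -0.04 (SE 0.114, edgeR adjusted p = 0.967). Fen1, the nuclease that removes flaps before ligation, had a log2 fold change of 0.02. Chaf1b, the p60 subunit of chromatin assembly factor 1, which places histones on new DNA, was at 66.9 and 70.8 TPM in KO and 94.7 and 80.0 TPM in Control. It had the smallest edgeR p of all replication genes, whereas in DESeq2 that of Pold1 was smaller. Both KO libraries lay lower on TPM and on CPM (77.5 and 79.0 in KO, 112 and 97.5 in Control), with a log2 fold change of -0.42 (SE 0.134, edgeR adjusted p = 0.349). The interval ran from a fold change of 0.601 to 0.924, and DESeq2 called Chaf1b lower (adjusted p = 0.0115). Chaf1a, the large subunit of the same factor, had a log2 fold change of -0.17 (SE 0.103, edgeR adjusted p = 0.641), and its TPM values of 68.7 and 97.0 in KO overlapped those of 137 and 77.9 in Control.

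Counts and TPM went apart for genes whose estimated transcript length moved between libraries. RSEM gives each gene an effective length in each library, averaged over its isoforms by their estimated shares. This length ranged by over 20% between libraries for 9 of the 39 genes. For Rfc5 it was 1689 and 1022 bases in KO and 1751 and 2214 bases in Control. Replicate 2 of KO was thus assigned the shortest isoform mixture and Control replicate 2 the longest, and the log2 ratio of mean TPM was 0.35 where that of counts was -0.32. Rfc1, the large RFC subunit, had effective lengths of 4174 and 4295 bases in KO and 4112 and 2134 bases in Control. Its TPM was 66.4 and 68.6 in KO and 70.8 and 116 in Control, while CPM was 195 and 213 in KO and 210.2 and 183 in Control. The high TPM of Control replicate 2 thus went with a short estimated length and not with a high count. Chaf1a and Gins2 had the same kind of spread, with 3470 and 2555 bases in KO and 1999 and 3298 bases in Control for Chaf1a, and 1181 and 1081 bases in KO and 1042 and 2032 bases in Control for Gins2. In all, 8 genes had a TPM ratio and a count fold change of opposite sign. Exons of Gins2, Fen1 and Chaf1a overlap those of Gse1, Gm10143 and Ubxn6 on the opposite strand over 67.3%, 78.8% and 52.5% of their length. Whether counting used strand is not stated in the sources used here, so these 3 genes are the least certain.

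**Figure D3:**
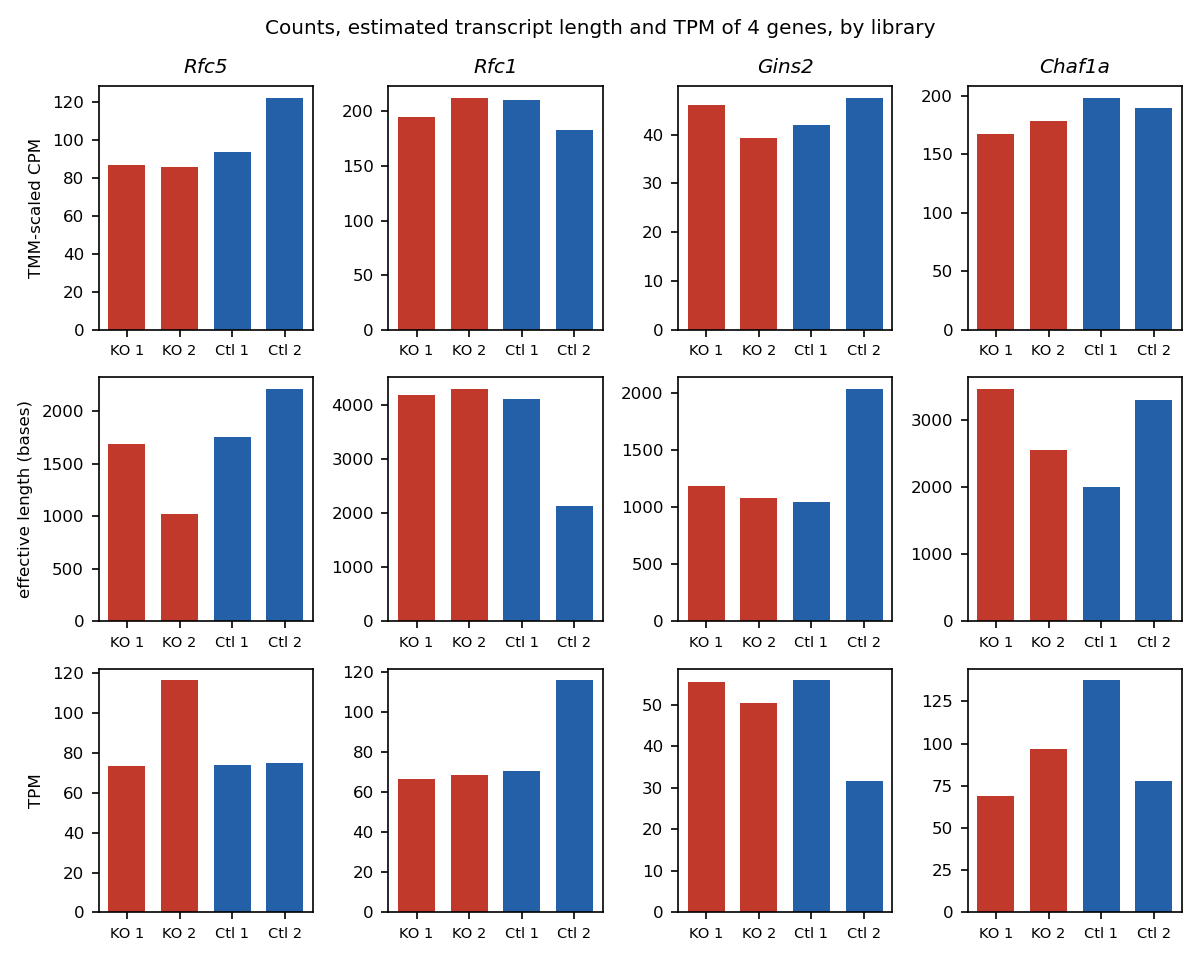
TMM-scaled CPM (top row), RSEM effective length in bases (middle row) and TPM (bottom row) of Rfc5, Rfc1, Gins2 and Chaf1a, with 1 bar per library (red KO, blue Control, axes from 0). Bars that are short in the middle row, such as Rfc1 in Control replicate 2 at 2134 bases, are tall in the bottom row at similar CPM.

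The rest of the pathway was also close to even. Another 82 genes (83 gene models) covered other licensing and firing factors, polymerases and fork proteins, nucleotide supply, chromatin at forks and S phase control. They had 0 calls in either direction in edgeR, beside 0.451% of all genes higher and 0.212% lower. At an unadjusted p under 0.05, 3 were higher, beside 5.81% of all genes, and 3 lower, beside 4.61%. Their median log2 fold change was 0.02. DESeq2 called E2f2 and Pclaf higher, beside 4.29% of all genes, and Orc2 and Ccne1 lower, beside 3.55%. The largest sizes were in genes of S phase control. E2f2, an activating E2F factor, had 58.8 and 59.6 CPM in KO and 29.9 and 32.5 CPM in Control. The groups were far apart on CPM, with a log2 fold change of 0.92 (SE 0.180, edgeR adjusted p = 0.1005), but on TPM (18.7 and 18.5 in KO, 9.24 and 18.2 in Control) Control replicate 2 was near the KO libraries. Ccne1, cyclin E1, which drives entry into S phase, had 16.5 and 13.7 CPM in KO and 36.1 and 33.7 CPM in Control. It lay lower in both KO libraries, also on TPM (13.5 and 22.1 in KO, 55.3 and 32.4 in Control), with a log2 fold change of -1.21 (SE 0.242, edgeR adjusted p = 0.114). Without Control replicate 2, both passed in edgeR, with adjusted p = 0.0307 for E2f2 and 0.0390 for Ccne1.

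Cdkn1a, which encodes the CDK inhibitor p21, had 24.1 and 19.0 TPM in KO and 2.22 and 14.9 TPM in Control. Both KO libraries lay above both Control libraries, with a log2 fold change of 1.32 (SE 0.670, edgeR adjusted p = 0.546). Without Control replicate 2 the fold change of Cdkn1a was 3.14, so its size depended on the Control library. E2f4, a repressive E2F factor, had a log2 fold change of -0.28 (edgeR adjusted p = 0.460). Among the other licensing factors, Orc2, a subunit of the origin recognition complex, had 69.2 and 57.1 CPM in KO and 98.3 and 92.5 CPM in Control, with a log2 fold change of -0.59 (edgeR adjusted p = 0.227). It lay lower in both KO libraries. Ticrr, Topbp1 and Recql4, which act in origin firing, had 0.38, 0.17 and -0.29. Pclaf, the PCNA-binding factor, had 159.5 and 137 CPM in KO and 109 and 106 CPM in Control, with a log2 fold change of 0.46 (edgeR adjusted p = 0.261). Top2a, the topoisomerase that untangles replicated DNA, had 0.25, while Chtf18 and Dscc1, subunits of the alternative clamp loader, had -0.43 and -0.49. Gart, Dut and Dctd, enzymes of purine and pyrimidine nucleotide supply, had log2 fold changes of -0.22, -0.19 and 0.27. Ssrp1, Hells, Uhrf1 and Nasp, which handle histones or DNA methylation at forks, had -0.16, 0.26, 0.14 and 0.14. None of these genes passed in edgeR, and both signs were present in every list.

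**Figure D4:**
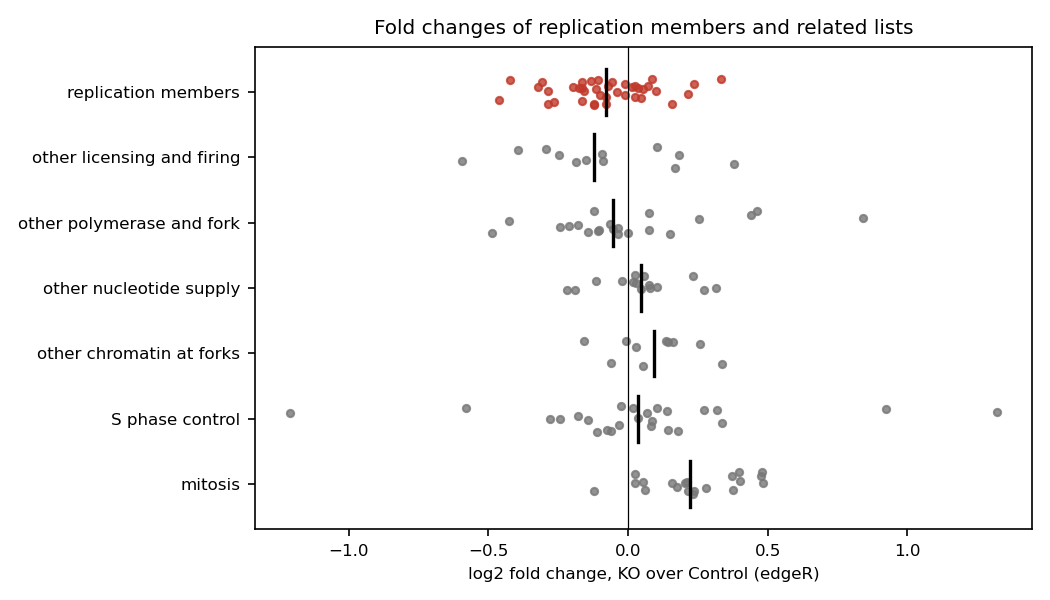
Log2 fold change of KO over Control (edgeR, 1 point per gene model) for the replication genes (red), 5 further lists of the pathway and mitosis genes (grey), with the median of each as a vertical bar. The replication genes crowd near 0 with a median of -0.08, mitosis genes have a median of 0.22, and the widest spread is in S phase control.

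Mitosis genes, which act after replication is complete, had a median log2 fold change of 0.22, with 19 of 20 positive. At an unadjusted p under 0.05 in edgeR, 7 were higher, beside 5.81% of all genes. After adjustment 0 passed the test in edgeR, beside 0.451% of all genes called higher. DESeq2 called 7 of them higher, beside 4.29% of all genes, and edgeR without the filter called 1. They summed to 1903 and 1827 TPM in KO and 1645 and 1428 TPM in Control. Mki67, the proliferation marker Ki-67, was at 201 and 177 TPM in KO and 154 and 126 TPM in Control (log2 fold change 0.40, edgeR adjusted p = 0.237). The groups did not overlap for the sum or for Mki67, unlike the sum of the replication genes. Both KO libraries lay above both Control libraries on TPM for 23.1% of all genes. Whether the 2 lists differ was not tested.

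Markers of other cell types differed between the groups. Over all genes tested, edgeR called 0.451% higher and 0.212% lower, and the 0 calls among 39 replication genes lay near those shares. B lineage markers rose for 10 of 11 genes, with sums of 678 and 466 TPM in KO and 65.0 and 97.1 TPM in Control. Mast cell markers rose for 4 of 10 genes, with sums of 514 and 581 TPM in KO and 217 and 164 TPM in Control, and the mast cell proteases Cma1, Tpsb2 and Tpsab1 were at 0 in Control. Erythroid markers fell for 8 of 15 genes tested, with sums of 659 and 771 TPM in KO and 1620 and 1579 TPM in Control, and Alas2, the heme enzyme of maturing red cells, was at 0 in all libraries. These sums did not overlap between the groups. Without KO replicate 1, the calls were 3 for B lineage and 4 for erythroid markers. With effective lengths as an offset 0 markers of either list were called, and limma on log2(TPM + 1) called 1 B lineage and 0 erythroid markers. Cpt1a itself did not pass in either fit, so low counts there say little. Of the neutrophil markers 1 of 11 fell, with sums of 6380 and 6566 TPM in KO and 11969 and 8220 TPM in Control, and 10 fell without Control replicate 2. Of 6 multipotent progenitor markers 2 rose, Cd48 and Satb1, and without KO replicate 1 the count was 0. Of 13 stem cell markers 0 passed, with sums of 641 and 644 TPM in KO and 602 and 676 TPM in Control. DESeq2 called 10 B lineage, 6 mast cell and 3 multipotent progenitor markers higher, beside 4.29% of all genes. It called 13 erythroid, 6 neutrophil and 1 stem cell marker lower, beside 3.55%. The part of these markers in the values of the replication genes was not tested.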

How the data were processed

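Per the labels, libraries were directional and made from polyadenylated RNA of sorted bone marrow cells. STAR, RSEM and mm10 are named, without versions, in the submitters' processing notes. The authors deposited expected counts per gene, which RSEM estimates and does not normalize, and TPM, which RSEM scales by library and transcript length. Other values read from the deposited files were RSEM's effective length in bases and its posterior mean and SD of each count. The posterior SD was at most 0.0103% of the count of any replication gene.

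GENCODE M21 (GRCm38) gave symbols to 55141 of 55401 gene models. The 260 without a symbol held at most 0.00577% of a library's counts. Between 14358 and 16657 genes had at least 1 count in a library, and mitochondrial genes took 1.40% to 1.66% of counts. Counting noise was exceeded by the difference between replicates for 68.0% of KO and 70.9% of Control genes.

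Rounded expected counts entered a two-sided quasi-likelihood test in edgeR 4.0.16 (R 4.3.3) with a genotype term alone, TMM factors of 0.985 to 1.01 and filterByExpr at a minimum count of 10, which left 14635 genes. P-values were adjusted over these genes by Benjamini-Hochberg, and genes under 0.05 were called with no fold limit. CPM values were scaled with the same TMM factors. The SE is the log2 fold change over the square root of F, and intervals are 95% from that SE. The biological coefficient of variation was 0.471. With 2 libraries against 2, an exact permutation test cannot go below p = 0.333, so the p-values rest on spread pooled over genes. Values were not compared across counts and TPM except side by side. Alternatives were DESeq2 1.42.0, other size factors, no filter, effective lengths as an offset, posterior mean counts, limma 3.58.1 on log2(TPM + 1) and log2(TPM + 0.1), the replicate number as a block, and each library left out. The fitting script was also run on simulated counts. The changes set there were larger than those of the replication genes, so power for small changes was not measured.

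The replication genes and all lists were chosen with earlier results of these data known. Values in every library are given for the 2 genes of each step with the smallest p (1 in steps of 2 genes) and the highest and lowest fold change, while up to 4 genes with the smallest p of each further pathway list are named, of which 1 is not reported here. Of those, E2f2, Ccne1, Cdkn1a, Orc2 and Pclaf have values in every library and the others a log2 fold change only. Gmnn, Cdc6, Pola1, Pcna, Tyms, Rpa2, Rfc1, Chaf1a and Gins2 were given in more detail after their values were seen. Slamf1, Cd48, Mki67 and the other named markers were also outside this rule.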

Additional observations from a re-analysis of the deposited data

How the results depend on the processing

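The replication genes kept 0 calls in each direction under 12 of 13 alternatives, and DESeq2 called 2 lower. Their median log2 fold change stayed between -0.09 and -0.01, and between -0.09 and -0.04 with a library left out. The lowest adjusted p over edgeR and limma alternatives was 0.110. The sign held in all 13 for 17 genes and changed in some for 22. With effective lengths as an offset and in limma, Cpt1a itself did not pass, so a count of 0 there says little. The clamp loading median was 0.19 with effective lengths as an offset and 0.04 without, since the offset changes counts into values per length.

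Over all genes, 66 were higher and 31 lower. The counts were 628 and 519 with DESeq2, 111 and 85 without the filter, 3 and 1 with the length offset, 5 and 0 with limma on log2(TPM + 1), 0 and 0 with limma on log2(TPM + 0.1), and 0 and 0 with limma without a filter. With a library left out they ran from 24 to 238 and from 18 to 144, lowest without KO replicate 1. The cause was not tested. A group left with 1 library was assumed to vary like the other group. For further pathway genes, DESeq2 called 2 higher and 2 lower, the unfiltered fit called 1 higher (E2f2) and 1 lower (Ccne1), and with a library left out counts ran from 0 to 2 and from 0 to 1, the highest without Control replicate 2 (E2f2 and Cdkn1a higher, Ccne1 lower).

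The labels do not say what a replicate number marks. Deviations of same-numbered samples from their group mean had a correlation of -0.0252 across genes. From 2 libraries per group, this value cannot tell whether the numbers pair the samples. With the replicate number as a block, 0 replication genes were called, 62 genes were higher and 36 lower, and the median of the replication genes was -0.07.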
